A study of Mus musculus with 5 samples.

Results

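The genes described here are 10 mouse genes of the endoplasmic reticulum (ER) stress response, followed in total bone marrow before and after irradiation. They were chosen by name, and all probes annotated to them were taken. These were 15 of the 45281 probes of the array, 1 probe for each of 5 genes and 2 probes for each of the other 5, and the genes are 10 of the 19057 that carried a symbol. The members are the chaperones and folding enzymes Hspa5, Hsp90b1, Pdia4 and Sdf2l1, the J-domain cochaperones Dnajb9 and Dnajc3, the degradation factor Herpud1 and the transcription factors Xbp1, Atf4 and Ddit3.

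Male BALB/c mice, an inbred strain, aged 7 to 8 weeks, were given 4 Gy of gamma-rays to the whole body at once from a cobalt source, or were sham-irradiated. Tibia marrow was taken on days 3, 7, 11 and 21 after irradiation (DAI), and that of sham-irradiated mice (0 DAI) was the control. Gene expression was read on Illumina MouseWG-6 BeadChips, which carry probes of fixed sequence, with 1 array per time. From 6 to 8 mice were used at each time to obtain enough cells, while the RNA was also said to come from 4 mice after irradiation and 1 after sham, so how many animals each array stands for is not settled.

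Secreted and membrane proteins fold in the ER. When unfolded proteins build up there, the chaperone Hspa5 (BiP) leaves 3 membrane sensors and a gene program called the unfolded protein response is switched on. Ire1 splices the mRNA of Xbp1, Perk phosphorylates the initiation factor eIF2α and so favors translation of Atf4, and Atf6 is cut to release a transcription factor. Chaperone genes are classical targets of Atf6 and spliced Xbp1, and Ddit3 (CHOP), a factor linked to cell death, is a classical target of Atf4. In marrow the program is best known in antibody-secreting plasma cells, which depend on Xbp1, and in blood stem cells. Splicing of Xbp1 and the level of Atf4 protein are controlled after transcription and are not read by a probe signal, and the position of the Xbp1 probe relative to the spliced stretch was not examined.

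The ER stress response element (ERSE), a CCAAT box and a CCACG box with a fixed gap, is the classical site through which Atf6 and Xbp1 act on chaperone promoters. It is shown here because it ties several members together by sequence and not by their signals. The RefSeq table of mouse promoters (build GRCm38.p6) holds windows of 250 bases before to 50 bases after annotated starts, and each motif was searched as exact letters on both strands. ERSE was spelled as CCAAT, 9 bases of any kind and CCACG, and was found in 39 of 32851 windows (0.119%), those of 37 genes. Among the 10 members it was found in Hspa5, Hsp90b1 and Dnajc3. A related element, ERSE-II, spelled as ATTGG, 1 base of any kind and CCACG, was found in 12 windows (0.0365%), and 1 of them is that of Herpud1. The stretches follow with the matched letters in capitals, for Hspa5 at chr2:34772005-34772063 (plus strand), for Hsp90b1 at chr10:86705513-86705676 (minus strand), for Dnajc3 at chr14:118937807-118937865 (plus strand) and for Herpud1 at chr8:94386357-94386407 (plus strand).
Hspa5: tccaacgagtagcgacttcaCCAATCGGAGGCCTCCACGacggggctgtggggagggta
Hsp90b1: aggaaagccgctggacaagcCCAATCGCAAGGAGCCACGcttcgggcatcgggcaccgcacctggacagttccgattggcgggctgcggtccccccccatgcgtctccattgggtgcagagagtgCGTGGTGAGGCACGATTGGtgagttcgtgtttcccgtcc
Dnajc3: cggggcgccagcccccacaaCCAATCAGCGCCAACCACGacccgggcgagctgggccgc
Herpud1: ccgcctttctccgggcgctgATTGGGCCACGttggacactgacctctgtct

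The ERSE of Hspa5 ended 47 bases before the annotated start, and that of Dnajc3 ended 87 bases before it. Hsp90b1 held the element at 2 places, the nearer of them on the opposite strand. A core of the unfolded protein response element, spelled TGACGTG, was in 661 windows (2.01%) and among the members in that of Hspa5. A CCAAT-enhancer-binding protein and ATF response element (CARE), spelled TGATGNAAN, was in 1299 windows (3.95%) and among the members in that of Herpud1. These exact letters were not found in the windows of Pdia4, Sdf2l1, Dnajb9, Xbp1, Atf4 and Ddit3. A match is a description of the letters in 1 window per start and does not show that a factor bound there.

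**Figure D1:**
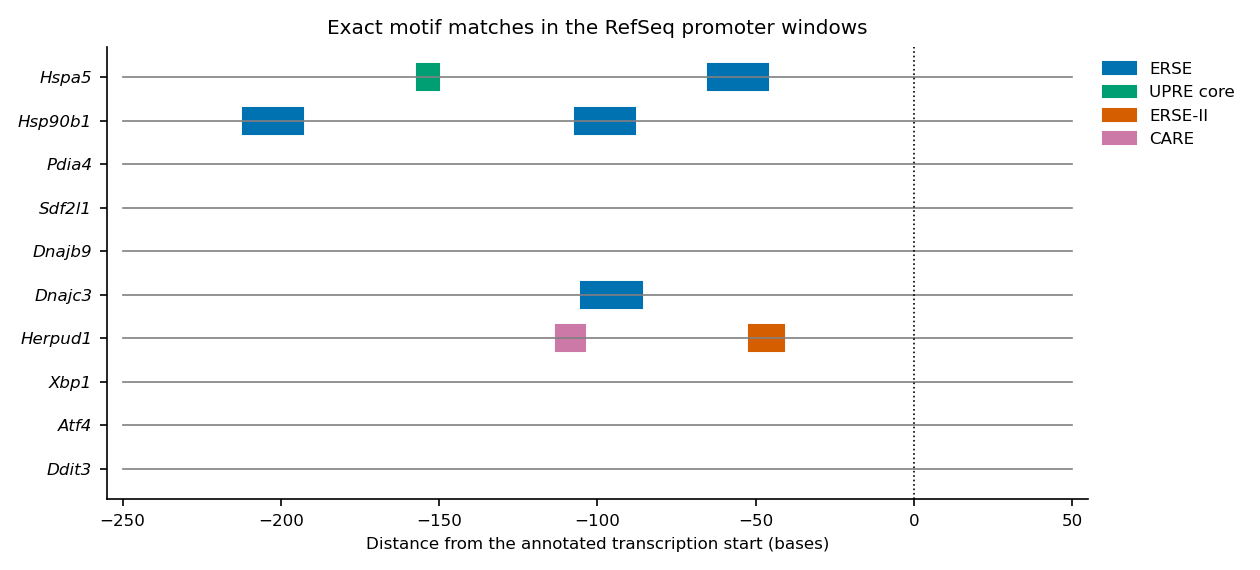
Positions of exact motif matches in the promoter window of each member, with distance from the annotated transcription start in bases on the x axis and 1 row per gene. Hspa5, Hsp90b1 and Dnajc3 hold an ERSE, Herpud1 holds an ERSE-II and a CARE, and the other 6 rows are empty.

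The deposited signals are background-subtracted intensities scaled to a mean of 535.7 on every array, and between 29.8% and 30.5% of the probes were above a signal of 64. That signal served as a floor, and a ratio was formed unless both signals were under it. All 10 members were above the floor on all 5 arrays. For each gene the probe of highest mean signal over the arrays was read, and a member was called at a log2 ratio of at least 1 in size, that is, a 2-fold difference. With 1 array per time there is no spread between replicates, no test and no error for any value, and all ratios to sham share the same sham array. Signals of different probes are not compared with each other. The median log2 ratio to sham over all genes was 0.12, 0.11, 0.12 and 0.17 at 3, 7, 11 and 21 DAI. The tissue label fitted the signals, since the 12 neutrophil genes with a probe were above the floor on every array. Other marker genes differed between arrays and are given where they bear on a result. In whole marrow, fewer cells of a type and less RNA per cell cannot be told apart.

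The 10 genes did not move as a single block. Against sham, 3 members were higher at 3 DAI (Dnajc3, Pdia4 and Sdf2l1) where 5.56% of all genes were, and 0 members were lower, against 4.19% of all genes. At 7 DAI, 0 members were higher (4.09% of all genes) and 3 were lower (Hspa5, Ddit3 and Dnajb9), against 3.4% of all genes. At 11 DAI, 1 member was higher (Sdf2l1), against 6% of all genes, and 1 was lower (Dnajb9), against 5.21%. At 21 DAI, 1 was higher (Dnajc3), against 2.56%, and 3 were lower (Ddit3, Dnajb9 and Hspa5), against 3.69%. The median log2 ratio of the members was -0.17, -0.47, 0.09 and -0.06 at the 4 times. Of the 10 members, 5 had their highest signal on the sham array (Hspa5, Dnajb9, Herpud1, Atf4 and Ddit3), as did 10.6% of the 8879 genes above the floor on any array. The 7 DAI array was the lowest of the 5 for 6 members (Hspa5, Hsp90b1, Pdia4, Sdf2l1, Dnajc3 and Ddit3), as it was for 19.8% of all genes.

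**Figure D2:**
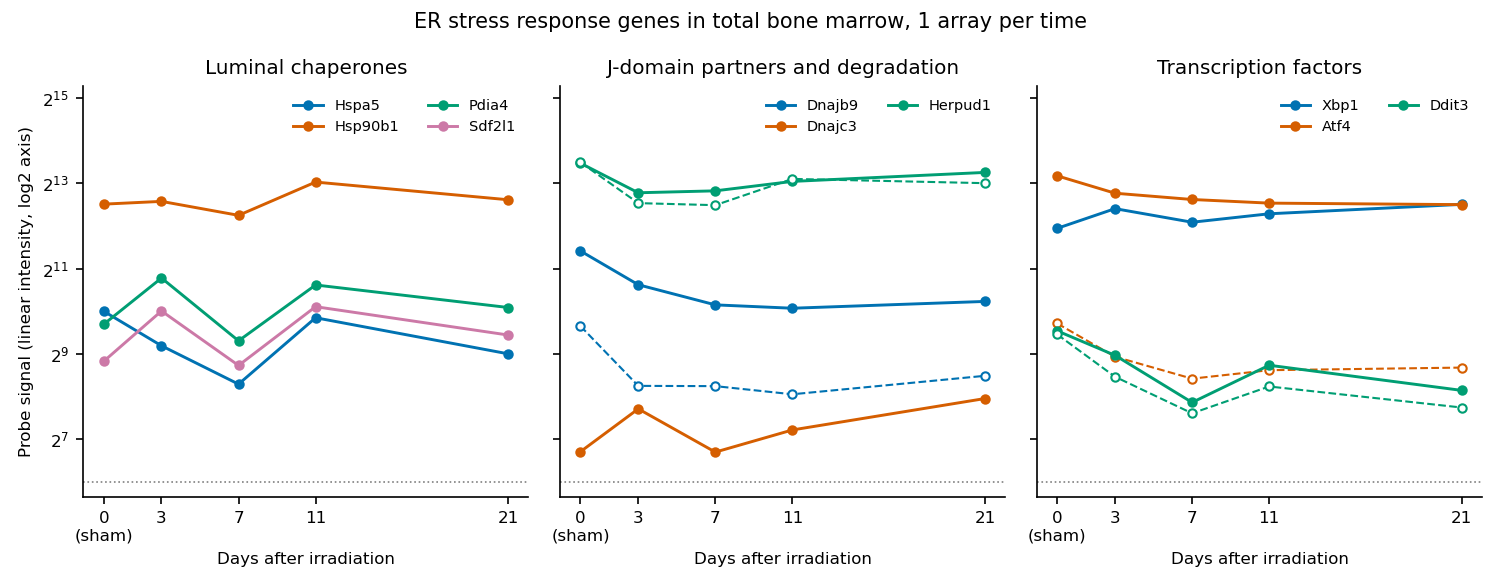
Probe signal of each member on a log2 axis against days after irradiation, with 1 array per time, in panels for luminal chaperones, for J-domain partners with the degradation factor, and for transcription factors. Filled points are the probe used and open points with broken lines the second probe where it was above the floor of 64 (dotted line), and Pdia4 and Sdf2l1 can be seen high at 3 and 11 DAI and low at 0 and 7 DAI.

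Hspa5 (Entrez gene 14828) encodes BiP, the main Hsp70 chaperone of the ER lumen and the holder of the stress sensors. Its signal was 1023 in sham marrow and 583, 312, 920.3 and 511 at the 4 later times. The sham and 11 DAI arrays were thus high, the 7 DAI array was the lowest, and the other 2 lay between. Against sham the log2 ratio was -0.81, -1.71, -0.15 and -1.0002, and the value at 7 DAI was a 3.28-fold lower signal, below which lay 0.884% of all genes with a ratio. From 7 to 11 DAI the signal was 2.95-fold higher, a log2 ratio of 1.56, above that of 97.9% of all genes. The value at 21 DAI was at the edge of the 2-fold size and was -0.93 when a pseudocount of 50 took the place of the floor.

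Pdia4 (Entrez gene 12304), a protein disulfide isomerase, showed signals of 827, 1757, 632, 1568 and 1087 at 0, 3, 7, 11 and 21 DAI. It was highest at 3 DAI and lowest at 7 DAI, with the 11 DAI array close to the highest. The log2 ratio to sham was 1.09, -0.39, 0.92 and 0.39, so that the call at 3 DAI was the only call against sham, and it was 0.99 under quantile normalization or median scaling. Sdf2l1 (Entrez gene 64136), a cofactor of Hspa5 in folding and in the handling of misfolded proteins, had signals of 453, 1027, 423, 1102 and 694. The 3 and 11 DAI arrays were again the high ones, and the 0 and 7 DAI arrays the low ones. This was a log2 ratio to sham of 1.18, -0.10, 1.28 and 0.62, a 2.27-fold higher signal at 3 DAI and a 2.43-fold higher one at 11 DAI.

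Hsp90b1 (Entrez gene 22027), the ER form of Hsp90 and a helper of integrins and Toll-like receptors, had signals of 5847, 6115, 4873, 8375 and 6279. The 11 DAI array was the highest and the 7 DAI array the lowest, and no ratio reached 2-fold. Against sham the log2 ratio was 0.06, -0.26, 0.52 and 0.10, and the largest step was the 1.72-fold higher signal at 11 DAI than at 7 DAI.

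**Figure D3:**
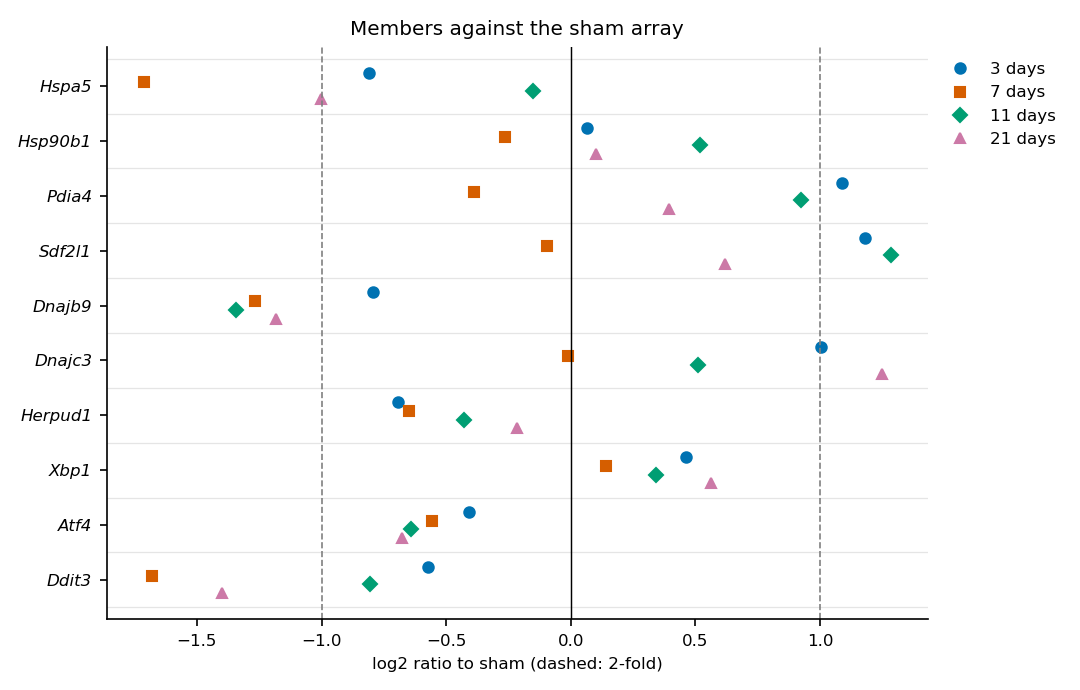
Log2 ratio of each member to the sham array on the x axis, with 1 row per gene and 1 symbol per time and broken lines at 2-fold. Dnajb9 lies below -1 at 7, 11 and 21 DAI, Hspa5 and Ddit3 lie lowest at 7 DAI, and Sdf2l1 lies above 1 at 3 and 11 DAI.

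Dnajb9 (Entrez gene 27362, ERdj4) is a J-domain partner of Hspa5 that holds the sensor Ire1 in check and assists degradation. Its signal was 2728 in sham marrow and 1575, 1135, 1074 and 1200.1 at 3, 7, 11 and 21 DAI. The sham array was above every irradiated array, and the 7, 11 and 21 DAI arrays lay close together. The log2 ratio to sham was -0.79, -1.27, -1.34 and -1.18. A second probe of Dnajb9 gave 803 in sham marrow and 304, 302, 265 and 358 afterwards, with log2 ratios of -1.40, -1.41, -1.60 and -1.17, so that by this probe the gene was also past 2-fold at 3 DAI.

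Dnajc3 (Entrez gene 100037258, p58IPK) is a J-domain cochaperone first described as an inhibitor of the eIF2α kinases. Its signal was 104, 209, 103, 148 and 247 at 0, 3, 7, 11 and 21 DAI, all near the floor. The 3 and 21 DAI arrays were the high ones, and the 0 and 7 DAI arrays were nearly alike. The log2 ratio to sham was 1.00, -0.01, 0.51 and 1.25, the last above that of 99.1% of all genes. The call at 3 DAI was lost under median scaling, where the ratio was 0.91, and with a pseudocount of 50, where it was 0.75. The call at 21 DAI was lost with that pseudocount (0.95) and with the mean over both probes (0.89). The second probe of Dnajc3 was under the floor on all 5 arrays.

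Herpud1 (Entrez gene 64209) is an ER membrane protein that organizes the complex for degradation of misfolded proteins. Its signal was 11384 in sham marrow and 7036, 7260.1, 8465 and 9798 at 3, 7, 11 and 21 DAI. The sham array was the highest and the signals lay nearer to it at the later times, with log2 ratios of -0.69, -0.65, -0.43 and -0.22. The second probe gave 11545, 5944, 5749.8, 8817 and 8225, with log2 ratios of -0.96, -1.01, -0.39 and -0.49. It placed the sham array highest as well, and the 7 DAI value was past 2-fold by this probe and not by the other.

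Xbp1 (Entrez gene 22433), the transcription factor spliced by Ire1, had a signal of 3944 in sham marrow and 5434, 4355, 4997 and 5826 at 3, 7, 11 and 21 DAI. It was the only member with its lowest signal on the sham array, and its range over the 5 arrays was 1.48-fold. Relative to sham the log2 ratio was 0.46, 0.14, 0.34 and 0.56, and none reached 2-fold.

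Atf4 (Entrez gene 11911), the transcription factor of the Perk branch, had signals of 9269, 6985, 6306, 5945 and 5800.2. Each array was lower than the one before it, and no ratio by this probe reached 2-fold, with log2 ratios of -0.41, -0.56, -0.64 and -0.68. The second probe gave 838, 488, 341, 392 and 409. It also had its highest signal in sham marrow, but with larger log2 ratios of -0.78, -1.30, -1.10 and -1.04, past 2-fold at 7, 11 and 21 DAI.

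Ddit3 (Entrez gene 13198), which encodes CHOP, had signals of 743, 499, 232, 425 and 282. Sham marrow was the highest, and the 7 DAI array was the lowest of the irradiated arrays. The log2 ratio to sham was -0.57, -1.68, -0.81 and -1.40, with 1.03% of all genes below the value at 7 DAI. The second probe of Ddit3 had signals of 701, 352, 194, 301 and 213. It ordered the 5 arrays in the same way and gave log2 ratios of -0.99, -1.85, -1.22 and -1.72, so that 11 DAI was also past 2-fold by it.

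The sham array differed from the irradiated arrays in another stress program. The summed signal of that program, like the signals of Hspa5, Dnajb9, Herpud1, Atf4 and Ddit3, was highest in sham marrow. Of 22 immediate early and heat shock genes, which are known to respond quickly to growth factors, stress or heat, 21 had a ratio at each time. Among these 13, 17, 16 and 16 were at least 2-fold lower than sham at 3, 7, 11 and 21 DAI, and 0 were higher at any time. Their summed signal was 239608 in sham marrow and 120913, 58383, 63551 and 61105 at the later times. For example, the signal of Fos was 37943 in sham marrow and 4859.8 at 7 DAI, and that of the cytosolic chaperone Hspa1a was 8687 in sham marrow and under the floor at 7 DAI. The time courses were not alike throughout. At 11 DAI the list median was -2.50, and the log2 ratio to sham was -0.15 for Hspa5, -0.81 for Ddit3 and -1.34 for Dnajb9. Within the list, Hsph1 (0.50), Hspa8 (-0.18) and Dnajb1 (-0.16) were also within 2-fold of sham at 11 DAI. The heat shock genes Hspa1a (-3.25), Hspa1b (-2.87) and Hspb1 (-1.32 or lower) were not. At 21 DAI the list median was -1.85, and the log2 ratio was -0.22 for Herpud1, -1.18 for Dnajb9 and -1.40 for Ddit3. The part of the list's difference from sham in the ratios of Hspa5, Dnajb9, Herpud1, Atf4 and Ddit3 was not tested.

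Comparisons that leave out the sham array gave other calls. Against the mean log2 signal of the other 3 irradiated arrays, Dnajb9 differed by 0.47, -0.16, -0.26 and -0.05 at 3, 7, 11 and 21 DAI, and Ddit3 by 0.72, -0.75, 0.41 and -0.38. Atf4 differed by 0.22, 0.02, -0.09 and -0.14. None of these 3 genes was called in this way at any time. Hspa5 was -1.06 on the 7 DAI array and 1.02 on the 11 DAI array, and Pdia4 was -1.19 and Sdf2l1 -1.12 on the 7 DAI array. At 7 DAI 3 of 10 members were thus lower, against 2.3% of all genes, and 0 were higher, against 3.98%. The 11 DAI array had 1 member higher, against 4.02%, and 0 lower, against 5.05%. The 3 DAI array had 0 members higher and 0 lower, against 3.8% and 2.89% of all genes, and so had the 21 DAI array, against 0.933% and 2.7%.

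Each irradiated array was also compared with the one before it. The steps from 3 to 7 DAI and from 7 to 11 DAI share the single 7 DAI array. The comparisons with the other 3 irradiated arrays use it too, so these results are not separate observations. From 3 to 7 DAI, 4 of the 10 members were at least 2-fold lower (Pdia4, Sdf2l1, Ddit3 and Dnajc3), against 6.07% of all genes, and 0 were higher, against 7.13%. The log2 ratio was -1.47 for Pdia4, -1.28 for Sdf2l1, -1.11 for Ddit3 and -1.02 for Dnajc3, with a median over the members of -0.69 and over all genes of -0.03. From 7 to 11 DAI, 3 members were at least 2-fold higher (Hspa5, Sdf2l1 and Pdia4), against 5.75% of all genes, and 0 were lower, against 9.21%. Here the log2 ratio was 1.56 for Hspa5, 1.38 for Sdf2l1 and 1.31 for Pdia4, and the median was 0.65 over the members and 0.04 over all genes. From 11 to 21 DAI, 0 members reached 2-fold in either direction, against 6.14% of all genes higher and 5.83% lower. All 4 luminal chaperones were lower in this step, with log2 ratios of -0.85 for Hspa5, -0.67 for Sdf2l1, -0.53 for Pdia4 and -0.42 for Hsp90b1, and Dnajc3 was higher at 0.74.

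The immediate early and heat shock list and markers of other cells moved in the same steps. Their part in the members' ratios was not tested. From 3 to 7 DAI that stress list had 12 genes past 2-fold downward and 1 upward (Ier2), out of 20, with a median of -1.39. From 7 to 11 DAI it had 6 upward (Hspa1a, Hspa1b, Egr1, Fosb, Egr3 and Hsph1), out of 18. In that step 2 went downward (Ier2 and Dusp1), and the median was 0.33. Of 14 listed T and NK cell genes 12 had a probe and 8 a ratio. Cd4, Cd8a, Gzmb and Klrb1c were under the floor on all 5 arrays. At 7 DAI Cd3e (49.8) was under the floor and Cd3g (99.2) near it. From 3 to 7 DAI 5 of the 8 were at least 2-fold lower (Cd3g, Cd2, Nkg7, Cd3e and Klrd1) and 1 was higher (Cd3d), with a median log2 ratio of -1.19, and from 7 to 11 DAI 3 were higher (Cd2, Klrd1 and Cd3g) and 1 was lower (Cd3d), with a median of 0.85. The summed signal of the list was 34324, 24740.5, 24145, 25737 and 28710.3 at 0, 3, 7, 11 and 21 DAI. Klrd1, a receptor subunit of NK cells, had signals of 606, 981, 459, 1106 and 456, and so was high at 3 and 11 DAI as Pdia4 and Sdf2l1 were. Its log2 ratios to sham at those times, 0.69 and 0.87, were short of 2-fold. Cd3d had the opposite course, with 5949, 3044, 8263, 1129 and 5052. Against sham, 0 of the 8 were higher and 1 was lower (Prf1) at 3 DAI. At 11 DAI 1 was higher (Cd2) and 1 was lower (Cd3d). Of 12 neutrophil genes 2 were lower from 3 to 7 DAI, the granule protease genes Ctsg (log2 ratio -1.39) and Prtn3 (-1.02), and 2 were higher, Mmp8 (2.76) and Mmp9 (1.20), while from 7 to 11 DAI 0 were higher and 2 were lower (Mmp8 and Mmp9).

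**Figure D4:**
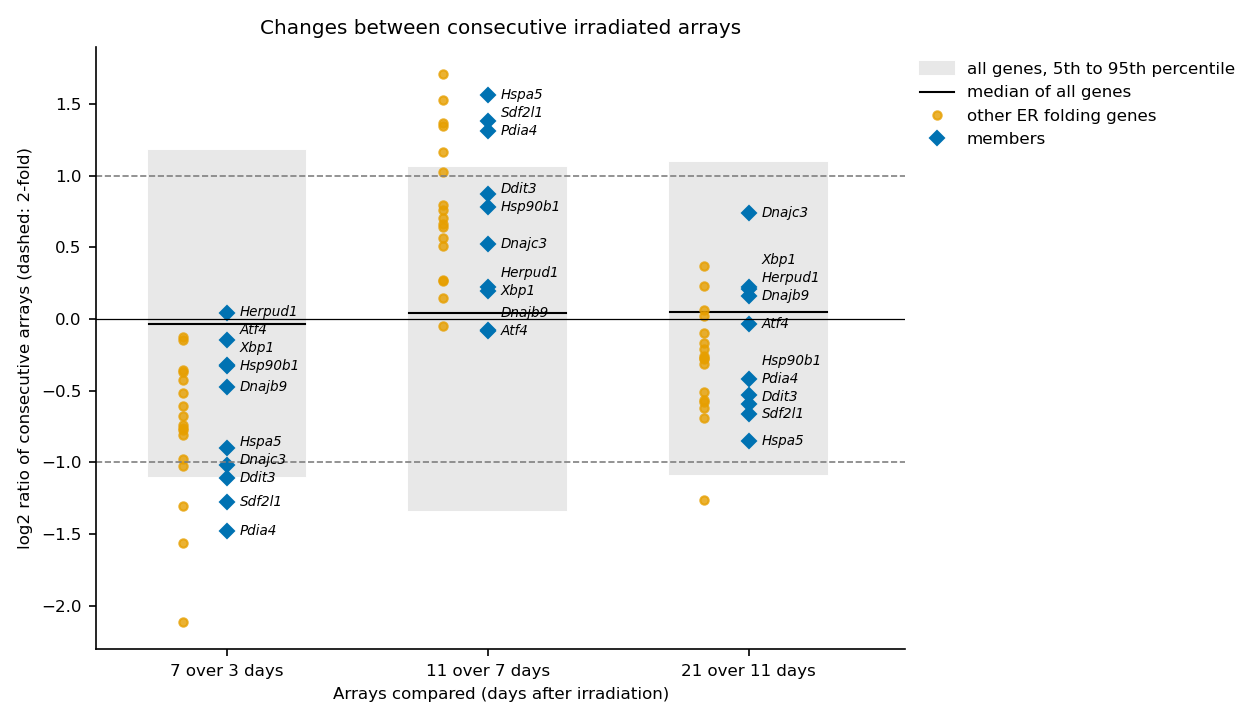
Log2 ratio of consecutive irradiated arrays (y axis) for the members (diamonds, named) and the other ER folding genes (circles), over the 5th to 95th percentile of all genes (grey box) and their median (line). Hspa5, Sdf2l1 and Pdia4 lie above the box from 7 to 11 DAI, and Sdf2l1, Ddit3 and Pdia4 lie below it from 3 to 7 DAI.

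Other genes for ER folding were counted in the same way. Of 22 listed folding genes that are no members, 21 had a probe and 17 a ratio. Higher than sham by 2-fold or more were 4 of the 17 at 3 DAI (Calr, Pdia5, Hyou1 and Sil1), against 5.56% of all genes, and 5 at 11 DAI (Sil1, Creld2, Txndc5, Hyou1 and Calr), against 6%, with 0 at 7 and 21 DAI, and 0 were lower at any time. The list median was 0.61, -0.21, 0.55 and 0.28 at 3, 7, 11 and 21 DAI. From 3 to 7 DAI 4 of the 17 were lower (Pdia5, Calr, Pdia6 and Sil1), against 6.07% of all genes, with a median of -0.74, and from 7 to 11 DAI 6 were higher (Pdia5, Pdia6, Creld2, Sil1, Calr and Txndc5), against 5.75%, with a median of 0.71. Calr, the lectin chaperone calreticulin, had signals of 923, 2495, 843, 1889.9 and 1278 at 0, 3, 7, 11 and 21 DAI. Sil1, the nucleotide exchange factor of Hspa5, had 82, 169, 82.9, 211 and 137, and Hyou1, an ER chaperone with the same exchange activity, had 137, 316, 198, 293 and 205. All 3 were higher at 3 and 11 DAI than at 0 or 7 DAI, although the 7 DAI signal of Hyou1 was above that of sham. Some of these calls were lost in other settings, Sil1 at 3 DAI with a floor of 100 (0.75) and under median scaling (0.94), and at 11 DAI Calr under quantile normalization (0.90) and median scaling (0.91) and Hyou1 under median scaling (0.97). With a pseudocount of 50, Hyou1 (0.97) and Sil1 (0.73) fell short at 3 DAI. At 11 DAI Hyou1 (0.87), Sil1 (0.98) and Calr (0.996) did so with it, as did Calr with the mean over probes (0.99). The pseudocount also took the Sil1 calls from 3 to 7 DAI (-0.72) and from 7 to 11 DAI (0.97). The first of these was also lost under quantile normalization (-0.94) and with a floor of 100 (-0.75). Pdia5, Pdia6, Creld2 and Txndc5 were not run in the other settings, so whether their calls hold there is not known. The brightest folding genes were Erp29 and the disulfide isomerase genes P4hb and Pdia3, and none reached 2-fold in these steps. From 7 to 11 DAI their log2 ratios were 0.64, 0.66 and 0.76, near the list median of 0.71. From 3 to 7 DAI they were -0.52, -0.98 and -0.81, beside the median of -0.74. In that step P4hb was past 2-fold under quantile normalization and median scaling (-1.002 in both).

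Among the genes for entry into the ER and for degradation, 1 was called against sham. Of 20 genes for translocation and signal peptide cleavage with a ratio, 0 were called at 3, 7 and 21 DAI and 1 was higher at 11 DAI, Srprb, a subunit of the signal recognition particle receptor (log2 ratio 1.05). The list median was 0.35, -0.06, 0.24 and 0.12. Ssr4, of the translocon-associated complex, had log2 ratios of 0.49, -0.27, 0.32 and 0.34, Sec61g, of the channel itself, 0.17, -0.07, 0.31 and -0.06, and Spcs1, of signal peptidase, 0.72, 0.04, 0.10 and 0.41. Of 12 genes for ER-associated degradation with a ratio, 0 were called at any time, and their median was 0.30, 0.17, 0.27 and 0.29. Syvn1 (Hrd1), the ubiquitin ligase that works with Herpud1, had signals of 5566, 3599.7, 6416, 10461 and 8079. It was lowest at 3 DAI and highest at 11 DAI, a log2 ratio to sham of 0.91 at that time. Vcp, the ATPase that extracts substrates, had 0.49, 0.36, 0.57 and 0.30, and Edem2, which trims sugars from misfolded glycoproteins, 0.59, 0.40, 0.32 and 0.62.

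Among the sensors and their proteases 8 genes had a probe and 6 a ratio. Eif2ak3, which encodes Perk, had signals of 207, 94.3, 159, 86.6 and 156, and was the only sensor gene called, lower at 3 DAI (log2 ratio -1.14) and at 11 DAI (-1.26). With a pseudocount of 50 these ratios were -0.83 and -0.91, and with the mean over probes -0.78 and -0.85, short of 2-fold. Against the other irradiated arrays they were -0.45 and -0.62. The signal of Eif2ak3 was thus low, and near the floor, on the 2 arrays on which Pdia4 and Sdf2l1 were high. Atf6b, a relative of Atf6, had log2 ratios of 0.15, 0.24, 0.47 and 0.45, Creb3, another membrane-bound factor, 0.06, 0.34, 0.18 and 0.28, and Mbtps1, the protease that cuts Atf6, 0.08, 0.36, 0.56 and 0.44. Atf6 itself was under the floor on all 5 arrays.

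Listed targets of the Perk and Atf4 branch differed from one another in time course. Of 28 genes, 25, 25, 23 and 24 had a ratio at 3, 7, 11 and 21 DAI. Of these 4, 2, 5 and 1 were higher than sham, against 5.56%, 4.09%, 6% and 2.56% of all genes. Lower were 1, 5, 2 and 4, against 4.19%, 3.4%, 5.21% and 3.69%. The list median was 0.19, 0.21, 0.52 and 0.07. Ppp1r15a (GADD34), which brings a phosphatase to eIF2α and so ends the block of translation, had signals of 6106, 1849.6, 1126, 1209 and 527, with log2 ratios of -1.72, -2.44, -2.34 and -3.53. Atf3, a stress-induced transcription factor that is also on the immediate early list, had 1223 and 1178 at 0 and 3 DAI and was under the floor afterwards, so that its log2 ratio was -4.26 or lower at 7, 11 and 21 DAI. Ddit4 (REDD1), an inhibitor of mTORC1, was past 2-fold at 7 and 21 DAI, with log2 ratios of -1.05 and -1.39. These 3 genes, like Ddit3, had their highest signal in sham marrow.

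Other listed targets, such as Psat1 and Shmt2, were instead high at 3 and 11 DAI, the arrays on which Pdia4 and Sdf2l1 were high. Psat1, of serine synthesis, had signals of 1817, 3641, 2186, 3989.7 and 2068, with log2 ratios to sham of 1.00, 0.27, 1.13 and 0.19. Shmt2, a mitochondrial serine hydroxymethyltransferase, had 185, 381, 184, 429.7 and 192, with log2 ratios of 1.05, -0.01, 1.22 and 0.06. Both genes had their 2 highest signals on those arrays, but at 3 DAI both fell short of 2-fold under median scaling (0.91 for Psat1 and 0.95 for Shmt2) and under quantile normalization (0.91 and 0.998). Gars, a tRNA synthetase, had log2 ratios of 0.76, 0.54, 1.03 and 0.17, and Asns, asparagine synthetase, 0.12, 0.21, 0.59 and -0.88. Chac1, a glutathione-degrading enzyme, had signals of 76, 153, 187, 115 and 214, near the floor, with log2 ratios of 1.01, 1.30, 0.60 and 1.49. It was past 2-fold at 3, 7 and 21 DAI, but with a floor of 100 the ratios at 3 and 7 DAI were 0.61 and 0.90, and at 3 DAI it was 0.97 under quantile normalization and 0.91 under median scaling. Cebpb, a leucine zipper factor that pairs with Ddit3, had 0.10, -0.11, -0.83 and -0.11.

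Cell type markers moved with the 3 DAI values, and their part in the ratios was not tested. Of 16 stromal and osteoblast genes with a probe, 14 were above the floor at 3 DAI and 3 to 8 on the other arrays, 11 of 14 were at least 2-fold higher than sham at 3 DAI (median log2 ratio 1.72), and their summed signal was 4036, 21621, 4100.3, 2894 and 3463 at 0, 3, 7, 11 and 21 DAI. Of 10 macrophage genes with a ratio, 7 were higher at 3 DAI, with summed signals of 3100.3, 12082, 5149, 3363 and 4277. At 11 DAI, where Sdf2l1 was again called and Pdia4 had a log2 ratio of 0.92, the stromal sum was the lowest of the 5. Of 9 macrophage genes with a ratio at 11 DAI, 4 were still higher than sham (C1qb at least 2.73, Fcna at least 2.41, C1qc 2.33 and Axl 1.20) and 1 was lower (Hmox1 -1.29), with a median of 0.67, while Vcam1, which is on both lists, had 1895.6 in sham marrow and 1126 at 11 DAI. The B-lineage list was low at 3 DAI, with 5 of 9 genes lower and 1 higher, and its summed signal was 32576, 12472, 34335, 48597 and 39220. That sum was highest at 11 DAI and was above sham at 7 DAI. At 7 DAI, however, the list median was -0.63. Of the 9 genes 2 were higher than sham (Igll1 at 2.33 and Vpreb1 at 2.24) and 3 were lower (Fcmr, Cd72 and Blk).

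Plasma cell markers are of interest because such cells hold much ER. Of 10 listed genes 7 had a ratio, and the defining markers Sdc1, Prdm1 and Tnfrsf17 were under the floor on all 5 arrays. The summed signal was 16517, 8190.1, 12492, 18152 and 17138, lowest at 3 DAI. Mzb1, an ER protein of B and plasma cells that works with Hsp90b1, had signals of 6520.3, 3773, 5766, 6968 and 5959, and Pou2af1, a B-cell coactivator, 5566, 1524, 4165, 6789 and 6665. Both were lowest at 3 DAI, where Pdia4 and Sdf2l1 were high. Other genes of the list moved the other way, Fkbp11 at 1.89 and Jchain at 0.83 or more at 3 DAI. In all, 1 gene was higher and 3 were lower than sham at 3 DAI, 0 and 1 at 7 DAI, and 2 (Fkbp11 at 1.39 and Jchain at 1.22 or more) and 0 at 11 DAI. At 21 DAI 7 of 8 erythroid genes were lower than sham (median log2 ratio -1.96), with a summed signal of 89466, 67723, 98828, 77288 and 61850, and Dnajc3 was at its highest on that array.

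The genes most like 5 of the members in their 4 log2 ratios to sham were sought among 7128 genes above the floor on all arrays, by the root mean square difference of the ratios over the 4 times. These ratios share the sham array, and the search is a description over 5 arrays. For Sdf2l1 they were Lss (0.115), Tspan3 (0.115) and the Hspa5 exchange factor Sil1 (0.117). For Xbp1 they were Manba (0.0359), Gorasp2 (0.0574), which encodes a Golgi stacking protein, and Ttf2 (0.0579). For Ddit3 they were Bard1 (0.130), Norad (0.141) and Snora70 (0.175), and for Dnajb9 the histone genes H4c9 (0.0781) and H2bc7 (0.116) and the helicase gene Ddx5 (0.146). For Hspa5 they were H2-Aa (0.199), a class II histocompatibility gene, Rabgap1l (0.240) and 2410006H16Rik (0.244), none of which is an ER folding gene of the lists used here.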

How the data were processed

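Total RNA of total bone marrow cells was measured on 5 Illumina MouseWG-6 arrays, 1 per time point. The authors read the arrays in GenomeStudio 2010.2 (submitters' processing notes) and deposited background-subtracted intensity values on a linear scale after average normalization; no further scaling was applied. Another 10 columns of signals and detection p-values, whose names match no sample label, were not used. Of the probes, 34885 carried 1 symbol, 18 several and 10378 were not listed, and only the first kind was used. Signals under 64 were raised to 64, ratios were taken on the log2 scale, and a gene was called at 2-fold. The t test named in the methods was not run, since each group has 1 array. The genes named are all members, the 3 brightest of each pathway list and those past 2-fold at 2 or more times (up to 6), and for 5 members the 3 nearest genes. Genes named beyond this rule, among them Srprb, Mzb1, Pou2af1 and those listed by name in counts, were chosen after their values were seen. The members, lists and rules were chosen with earlier results of these data known. Ratios between consecutive irradiated arrays were added after the values were seen. Alternatives were a floor of 100, a pseudocount of 50, median scaling, quantile normalization, sizes of 1.5-fold and 3-fold, the mean over probes, and the other 3 irradiated arrays as baseline. Values of single genes in these settings were taken only for the members and for the pathway genes of the naming rule. The computation was tested on simulated data over 19057 genes. Promoter sequences are those of RefSeq, build GRCm38.p6, and all 10 members had a window. The tools were numpy 2.4.6, pandas 2.3.3 and matplotlib 3.10.9 under Python 3.11.15.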

Additional observations from a re-analysis of the deposited data

How the results depend on the processing

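The median log2 ratio of the members turned from -0.17 to 0.32 at 3 DAI with the other 3 irradiated arrays as baseline and from 0.09 to -0.03 at 11 DAI under median scaling, and kept its sign at each time under the other alternatives run. A floor of 100 moved no count by over 1.5 times. The number of members higher at 3 DAI was 1 in place of 3 under quantile normalization and under median scaling (Dnajc3 at 0.96 and 0.91 and Pdia4 at 0.99 in both fell short), and 0 at 3-fold and with the other 3 irradiated arrays as baseline. The 1 member higher at 21 DAI became 0 with a pseudocount of 50, with the mean over probes, at 3-fold and with that baseline, and 2 at 1.5-fold, beside 14.2% of all genes. The 4 members lower from 3 to 7 DAI became 2 with the pseudocount and with the mean over probes, and 0 at 3-fold. At 1.5-fold, 3 members were lower at 3 DAI (0 at 2-fold) beside 10.7% of all genes, 2 higher and 3 lower at 11 DAI (1 and 1) beside 18.2% and 12.5%, 5 higher from 7 to 11 DAI (3) beside 17.3%, and 1 higher and 3 lower from 11 to 21 DAI (0 and 0) beside 17.1% and 13.9%. At 3-fold, 0 members were higher or lower at 11 DAI, beside 1.38% and 1.71% of all genes. At that size 0 were lower at 21 DAI, beside 1.53%, and 0 higher from 7 to 11 DAI, beside 1.99%. The other 3-fold shares were 1.68% higher at 3 DAI, 0.266% higher at 21 DAI and 2.07% lower from 3 to 7 DAI. Hspa5 (3.28-fold) and Ddit3 (3.20-fold) were still past 3-fold at 7 DAI, beside 1.17% of all genes. With the other 3 irradiated arrays as baseline, 0 members were lower at 11 or 21 DAI. That baseline also turned the sign of Chac1 at 3 DAI (-0.12 in place of 1.01) and of Ppp1r15a at 3, 7 and 11 DAI (1.05, 0.091 and 0.23 in place of -1.72, -2.44 and -2.34).

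Median scaling moved the median log2 ratio of all genes from 0.12, 0.11, 0.12 and 0.17 to 0.02, -0.01, 0.00 and 0.03 at 3, 7, 11 and 21 DAI. It changed the share of all genes called higher and lower to 4.57% and 5.23%, 2.71% and 4.36%, 4.21% and 6.46%, and 1.51% and 4.63%. Quantile normalization gave 1.83% and 4.16% at 21 DAI. The signals of Dnajc3, Sil1 and Chac1 lay near the floor, as did those of Hyou1 in sham marrow (137) and of Pdia6 at 7 DAI (94.1). Pdia5 was under the floor at 7 DAI (58.9). Its log2 ratios of -2.11 from 3 to 7 DAI and 1.71 from 7 to 11 DAI are thus bounds set by the floor. No paired analysis was possible because each group has 1 array.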

Other observations

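Of the 37 genes with an ERSE in a promoter window, 22 had a probe, and 10 of these exceeded the floor on 1 array or more. From 7 to 11 DAI 4 of these 10 were at least 2-fold higher, Hspa5, Calr, Creld2 and Pdia6, against 5.75% of all genes, with a median log2 ratio of 0.79 beside 0.04 over all genes. Against sham the medians of the 4 times in order were 0.12, -0.11, 0.51 and 0.15, beside 0.12, 0.11, 0.12 and 0.17 over all genes, with 2, 0, 2 and 1 of the 10 higher and 0, 1, 0 and 1 lower. Without the 3 members, 3 of the other 7 were higher from 7 to 11 DAI. These were Calr, Creld2 and Pdia6, which were already among the 6 folding genes counted as higher in that step. Of the rest, Ero1b is on the folding list and Syvn1 on the degradation list, so the ERSE genes are not a separate set. Creld2, a folding factor with disulfide isomerase activity, had signals of 1075, 1722, 1016, 2613 and 1090.3 at 0, 3, 7, 11 and 21 DAI, and Pdia6, a disulfide isomerase, had 169, 233, 94.1, 272 and 182. Both had their highest signal at 11 DAI. Syvn1, which also holds an ERSE, had log2 ratios of 0.83 from 3 to 7 DAI and 0.71 from 7 to 11 DAI, and so was not low at 7 DAI.

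Fkbp11, a membrane-bound prolyl isomerase of the ER placed here on the plasma cell list, had signals of 260.1, 964, 209.7, 684 and 463. Its log2 ratio was 1.89 from sham to 3 DAI, -2.20 from 3 to 7 DAI and 1.71 from 7 to 11 DAI. It was high at 3 and 11 DAI as Pdia4 and Sdf2l1 were, whereas Irf4, a transcription factor of the same list, had 2229, 392, 721, 1161 and 1295 and was lowest at 3 DAI.

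Between 11 and 21 DAI, 6 of 23 listed targets of the Perk and Atf4 branch were at least 2-fold lower, against 5.83% of all genes. In the other direction 0 were higher, against 6.14%, and the list median was -0.54 beside 0.05 over all genes. The 6 lower genes were Aldh18a1, of proline synthesis (-1.71), Asns (-1.46), the tRNA synthetase genes Cars (-1.37) and Aars (-1.08), Ppp1r15a (-1.20) and Shmt2 (-1.16). The call of Shmt2 was lost with a pseudocount of 50 (-0.99) and with the mean over probes (-0.93). Aldh18a1, Cars and Aars were not run in those settings. The log2 ratio of Atf4 over the same step was -0.04 and that of Ddit3 was -0.59.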
